A study of Mus musculus with 8 samples.

Results

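Collagens are the most abundant proteins of connective tissue, and 43 mouse genes that encode their chains were followed here in whole bladder tissue. The 43 are every symbol of the form Col, number, a, number in the deposited count files except Col17a1, out of 38926 gene symbols. They were sorted by the usual structural classes into 11 fibrillar, 9 network, 8 beaded filament, 9 fibril-associated (FACIT) and 6 other collagen genes. Bladder polyA RNA came from 4 libraries labelled NeMO, a surgical partial obstruction of the mouse bladder outlet that spares the nerves, and 4 labelled Sham, from sham-operated mice. The sources used here do not give strain, sex, age, the time since surgery or the animals behind the libraries. The p-values therefore reflect only how these samples vary, which may be technical.

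Collagen chains are wound in trimers into a triple helix, with glycine repeated along each chain, and are trimmed, assembled and crosslinked outside the cell. Fibrillar collagens form the tensile cables of the bladder wall, network collagens form the sheets of basement membranes, beaded filament collagens link cells to the surrounding matrix, and FACIT collagens sit on the surface of fibrils. In the bladder, fibroblasts and smooth muscle cells make most of the fibrillar chains, and the balance of types I and III is linked to how far the wall can stretch. In bulk tissue, fewer cells of a type and less RNA per cell cannot be told apart.

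Library totals spanned 29451800 to 36375313 counts in NeMO, against 27212499 to 33459048 in Sham. Levels are given as CPM, the reads of a gene per 1000000 reads of the TMM-scaled library total. Batch 1, as marked in the submitted file names, holds 2 NeMO libraries (replicates 1 and 3) and 3 Sham libraries. Batch 2 holds 2 NeMO libraries (2 and 4) and 1 Sham library (4), so any value in batch 2 alone rests on that single Sham library. Of the 43 genes, 39 had enough reads for the test across 16370 genes, and 17 averaged over 100 CPM. NeMO replicate 3 stood apart: it held the highest of the 8 values for 26 of the 39 tested collagen genes. How often it was highest over all genes tested is not given. Values without NeMO replicate 3 are given beside most results. Smooth muscle and urothelial markers, which define the tissue, were abundant in every library, with summed levels of 28155 to 51950 and 4668 to 6848 CPM in NeMO and 32992 to 44930 and 5680 to 7503 CPM in Sham. Smooth muscle markers were lowest in NeMO replicate 3 (28155 CPM) and highest in NeMO replicate 1 (51950 CPM).

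Summed over all 43 genes, collagen transcripts measured 15791, 13386, 36057 and 22676 CPM in NeMO replicates 1 to 4, against 17050, 13755, 15090 and 14533 CPM in Sham replicates 1 to 4. NeMO replicates 3 and 4 were above every Sham library, and NeMO replicates 1 and 2 were within the Sham range or just under it. Collagen reads made up 2.22 ± 1.07% of all counts in NeMO and 1.51 ± 0.161% in Sham (SD, n = 4 each). The share spanned 1.37 to 3.72% in NeMO and 1.37 to 1.73% in Sham.

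**Figure D1:**
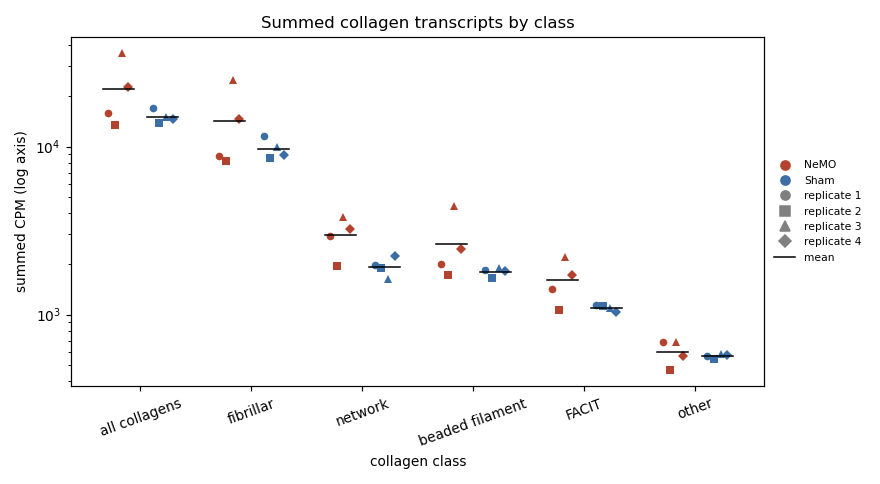
Summed CPM (log axis) of all 43 collagen genes and of each class, for the 4 NeMO libraries (left of each pair) and the 4 Sham libraries; each point is a library and the bar is the mean. NeMO replicate 3 is the highest library for all collagens, at 36057 CPM, and for the fibrillar class, at 24965 CPM, while the NeMO and Sham points of every class overlap.

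Of the 39 genes tested, 31 had a log2 fold change (NeMO minus Sham) above 0 and 8 below 0, with a median of 0.51. Over all genes tested the median was −0.01, and 48.3% were above 0. The same 31 genes stood above 0 when libraries were scaled by size factors in place of TMM. No collagen gene passed edgeR's quasi-likelihood test at an adjusted p of 0.05, in a comparison that called 0.0428% of all genes higher and 0.0305% lower. The smallest edgeR adjusted p among the collagen genes was 0.143. With an unadjusted p below 0.05, 15 collagen genes were higher and 2 lower, beside a background of 9.38% of all genes higher and 9.14% lower. DESeq2 called 4 collagen genes higher (Col24a1, Col4a1, Col4a2 and Col7a1) and 0 lower, beside 3.6% and 2.72% of all genes. Leaving out NeMO replicate 3 brought the median to 0.22 and the number with an unadjusted p below 0.05 to 5 higher and 1 lower. Leaving out NeMO replicate 1 brought the median to 0.72, with 6 genes past edgeR's adjusted threshold beside a background of 1.93% of genes called higher and 1.98% lower. Those 6 were Col5a2, Col11a1, Col24a1, Col27a1, Col6a5 and Col7a1, with edgeR adjusted p from 0.00986 to 0.0457. Leaving out NeMO replicate 4, then Sham replicate 2, then Sham replicate 4, the number higher with an unadjusted p below 0.05 was 9, 7 and 9. For these fits with a library left out, the share of all genes with an unadjusted p below 0.05 is not given. Within batches the median was 0.67 in batch 1 and 0.35 in batch 2.

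Against the mean of the Sham libraries on the log2 scale, the median collagen gene stood at 0.11, −0.05, 1.04 and 0.39 in NeMO replicates 1 to 4. NeMO replicate 3 exceeded all 4 Sham libraries in 28 of the 39 genes, NeMO replicate 4 in 22, NeMO replicate 1 in 13 and NeMO replicate 2 in 8. The matching shares over all genes tested are not given, so these counts have no background beside them. In 3 genes (Col24a1, Col6a3 and Col7a1) all 4 NeMO libraries were above all 4 Sham libraries, and in 1 (Col18a1) all were below. Over all genes tested, 4.39% had no overlap with NeMO higher and 3.81% with NeMO lower, so 3 and 1 of 39 are close to the background.

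**Figure D2:**
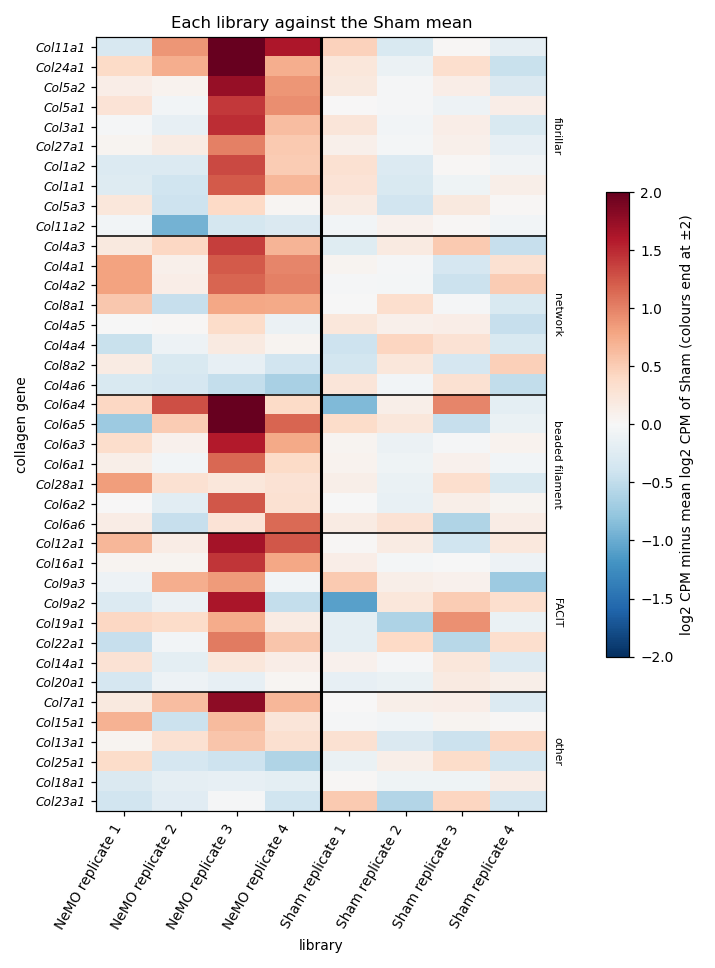
Difference of each library's log2 CPM from the mean log2 CPM of the 4 Sham libraries, for the 39 tested collagen genes (rows, grouped by class) in the 4 NeMO libraries (left) and the 4 Sham libraries (right); colours end at ±2. The column of NeMO replicate 3 holds most of the dark red cells, with a median of 1.04, while NeMO replicate 2 has a median of −0.05.

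Members of the family lie on 14 chromosomes, and several are neighbours with no protein-coding gene between them. On GRCm38 (mm10), with positions from the GENCODE annotation, Col4a1 (8, 11198423 to 11312826, minus strand) and Col4a2 (8, 11312805 to 11449287) lie head to head, and their annotated spans overlap at the starts. Col4a6 and Col4a5 lie head to head on chromosome X, 1308 bases apart, and Col4a4 and Col4a3 on chromosome 1, 71 bases apart. Col3a1 (1, 45311538 to 45349706) and Col5a2 (1, 45374321 to 45503282, minus strand) lie tail to tail with 24614 bases between them. Counts were summed per gene, without isoforms. The annotated span of a gene on the opposite strand, introns included, overlaps that of 18 of the 43, and in 5 of these that gene is protein-coding. Whether exons overlap was not examined. Without the strand setting of the counting, reads from any shared exon bases cannot be told apart.

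Bases upstream of the annotated start are shown for the most abundant member (Col3a1), for the 3 genes with every NeMO library above every Sham library, and for the head-to-head pair on chromosome X (Col4a6 and Col4a5), whose log2 fold changes had opposite signs. The sequences are RefSeq promoter windows (GRCm38.p6), each written 5′ to 3′ on the gene's own strand, and hold the 250 bases before the start except that of Col4a5. That window is shorter, at 216 bases, because an annotated untranslated exon begins before the RefSeq start. Capitals mark matches on either strand to 3 motifs. The CCAAT box reads in reverse complement as ATTGG. The GC box was searched as the letters GGGCGG and in reverse complement as CCGCCC. The TATA box was searched as the letters TATAAA and their reverse complement. These motifs do not overlap each other in the windows shown.
Col3a1, chr1:45311288-45311537, plus strand: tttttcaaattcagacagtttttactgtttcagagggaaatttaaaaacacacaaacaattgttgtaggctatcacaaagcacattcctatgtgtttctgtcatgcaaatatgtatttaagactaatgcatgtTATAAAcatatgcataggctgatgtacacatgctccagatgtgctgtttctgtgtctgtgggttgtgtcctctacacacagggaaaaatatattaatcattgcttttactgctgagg
Col24a1, chr3:145292222-145292471, plus strand: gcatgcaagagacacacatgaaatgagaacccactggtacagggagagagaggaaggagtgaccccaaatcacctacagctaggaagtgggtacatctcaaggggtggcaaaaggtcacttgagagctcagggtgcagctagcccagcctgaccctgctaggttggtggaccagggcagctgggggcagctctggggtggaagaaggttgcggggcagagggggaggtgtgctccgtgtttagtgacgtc
Col6a3, chr1:90843972-90844221, minus strand: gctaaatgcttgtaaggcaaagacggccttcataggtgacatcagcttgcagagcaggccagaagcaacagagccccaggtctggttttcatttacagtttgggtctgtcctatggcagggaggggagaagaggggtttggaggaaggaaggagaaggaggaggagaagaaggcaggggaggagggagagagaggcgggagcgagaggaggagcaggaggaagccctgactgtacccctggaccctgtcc
Col7a1, chr9:108953336-108953585, plus strand: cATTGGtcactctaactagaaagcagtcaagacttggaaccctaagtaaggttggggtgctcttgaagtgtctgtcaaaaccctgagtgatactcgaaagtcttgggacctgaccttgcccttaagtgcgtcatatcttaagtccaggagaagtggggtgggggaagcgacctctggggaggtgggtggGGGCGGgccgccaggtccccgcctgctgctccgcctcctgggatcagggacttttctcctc
Col4a6, chrX:141474077-141474326, minus strand: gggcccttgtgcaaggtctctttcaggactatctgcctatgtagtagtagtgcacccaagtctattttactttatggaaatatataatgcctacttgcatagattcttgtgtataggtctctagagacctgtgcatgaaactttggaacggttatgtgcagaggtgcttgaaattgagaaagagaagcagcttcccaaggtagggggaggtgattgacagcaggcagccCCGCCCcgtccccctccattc
Col4a5, chrX:141475169-141475384, plus strand: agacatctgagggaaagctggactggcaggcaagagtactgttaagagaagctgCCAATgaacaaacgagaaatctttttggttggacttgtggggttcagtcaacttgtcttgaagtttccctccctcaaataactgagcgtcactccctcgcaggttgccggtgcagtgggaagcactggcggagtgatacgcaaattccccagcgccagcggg
Of the bases shown, those of Col3a1 held TATAAA, those of Col7a1 both ATTGG and GGGCGG, and those of Col4a6 CCGCCC. The 216 bases of Col4a5 held CCAAT, and those of Col24a1 and Col6a3 held none of the 3 motifs. Over its full 250 bases Col4a5 also had a match to the GC box letters, and it is counted so below. In the 250 bases before the start, CCAAT was found in 33.8% of 32851 promoter windows, GGGCGG in 32.7% and TATAAA in 12.4%. Among the 34 collagen genes with a window, the numbers were 12 (35.3%), 21 (61.8%) and 4 (11.8%). Collagens were counted per gene, with a match in any window of the gene, but the background per window. The units thus differ. A match is a description of the letters and not a binding site.

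The fibrillar collagens carried most of the collagen reads, 62.6 ± 5.83% of them in NeMO and 64.1 ± 3.06% in Sham (SD, n = 4 each). Of the 10 tested fibrillar genes, 9 had a log2 fold change above 0, with a median of 0.63 beside −0.01 over all genes, and none passed edgeR's adjusted test (5 higher and 0 lower with an unadjusted p below 0.05, beside 9.38% and 9.14% of all genes). The median was 0.22 without NeMO replicate 3, 0.75 in batch 1 and 0.46 in batch 2. Type III and type I chains were the most abundant members per transcript length. On the scale of CPM per kilobase of the longest transcript, Col3a1 averaged 1051 in NeMO and 690 in Sham, Col1a2 760 in NeMO and 551 in Sham, and Col1a1 508 in NeMO and 373 in Sham.

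Col3a1, the only chain of type III collagen, measured 3707, 3375, 10530 and 5782 CPM in NeMO, against 4497, 3650, 4141 and 3059 CPM in Sham (values in the order of replicates 1 to 4 here and below). Col1a1, the alpha1 chain of type I collagen and the main protein of stiff fibrils, measured 1829, 1665, 5089 and 3475 CPM in NeMO, against 2642, 1784, 2065 and 2366 CPM in Sham. Col1a2, its alpha2 chain, measured 2416, 2426, 7283 and 4132 CPM in NeMO, against 3626, 2419, 2967 and 2779 CPM in Sham. All of these were highest in NeMO replicate 3, lay within or below the Sham range in NeMO replicates 1 and 2, and overlapped between the groups. The log2 fold changes were 0.72 (SE 0.32, edgeR adjusted p = 0.275) for Col3a1, 0.47 (SE 0.36, edgeR adjusted p = 0.523) for Col1a1 and 0.53 (SE 0.35, edgeR adjusted p = 0.46) for Col1a2. Without NeMO replicate 3 they were 0.20, −0.07 and −0.05.

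Type V collagen is built into type I fibrils, starts their assembly and sets their width. Col5a2 measured 326, 313, 995 and 554 CPM in NeMO, against 340, 292, 327 and 244 CPM in Sham (log2 fold change 0.97 with SE 0.35, edgeR adjusted p = 0.219). Col5a1 measured 361, 287, 802 and 570 CPM in NeMO, against 299, 293, 279 and 328 CPM in Sham (log2 fold change 0.78 with SE 0.31, edgeR adjusted p = 0.246). Both chains were above every Sham library in NeMO replicates 3 and 4, Col5a1 in NeMO replicate 1 too. Without NeMO replicate 3 the log2 fold changes were 0.41 for Col5a2 and 0.35 for Col5a1. Col5a3, a chain made in fewer tissues, measured 63, 40.5, 71.6 and 55.5 CPM in NeMO, against 60.9, 41.4, 61.9 and 54.9 CPM in Sham (log2 fold change 0.12 with SE 0.17, edgeR adjusted p = 0.748), and its groups overlapped. Col5a3 stood at 0.02 without NeMO replicate 3 and at 0.00 without Sham replicate 2.

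Type XI collagen, best known from cartilage and closely related to type V, gave the largest fitted difference at a mean of at least 1 CPM. Col11a1 measured 14.6, 33.6, 111 and 55.8 CPM in NeMO, against 25, 14.8, 18.4 and 16 CPM in Sham (log2 fold change 1.61 with SE 0.61, edgeR adjusted p = 0.236). NeMO replicates 2, 3 and 4 were above all Sham libraries, whereas NeMO replicate 1 was below all of them. Without NeMO replicate 3 Col11a1 stood at 0.49, and leaving out NeMO replicate 1 gave 2.06 (edgeR adjusted p = 0.0368), and in batches 1 and 2 it was 1.69 and 1.49. The cartilage and bone markers Matn1, Bglap, Ibsp, Comp and Acan were under 1 CPM in all 8 libraries. The remaining gene of that list, Runx2, a transcription factor of bone formation, measured 4.87, 8.14, 14.4 and 10.5 CPM in NeMO, against 7.42, 4.74, 5.98 and 2.77 CPM in Sham. Like Col11a1 it was highest in NeMO replicate 3 and lowest among NeMO libraries in replicate 1 (log2 fold change 1.02 with SE 0.39, edgeR adjusted p = 0.225), and its part in the result was not tested. The partner chain Col11a2 measured 5.96, 3.18, 4.83 and 5.03 CPM in NeMO, against 5.92, 6.54, 6.28 and 5.96 CPM in Sham (log2 fold change −0.33 with SE 0.19, edgeR adjusted p = 0.4), the only tested fibrillar gene below 0. Col2a1, the main collagen of cartilage, had 8, 7, 8 and 15 reads in NeMO and 11, 4, 8 and 0 reads in Sham, and was not tested.

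Col24a1 and Col27a1 encode fibrillar collagens known from developing bone and cartilage. Col24a1 measured 5.01, 6.32, 24.6 and 6.33 CPM in NeMO, against 4.47, 3.53, 4.85 and 2.77 CPM in Sham (log2 fold change 1.59 with SE 0.45, edgeR adjusted p = 0.143). Every NeMO value was above every Sham value, and NeMO replicate 3 alone stood far above the others. Without NeMO replicate 3 the log2 fold change was 0.67, with DESeq2 it was 1.58 (DESeq2 adjusted p = 0.00462), and in batches 1 and 2 it was 1.79 and 1.20. Col27a1 measured 28.9, 30.9, 55.7 and 39.8 CPM in NeMO, against 29.5, 26.9, 29.6 and 24.7 CPM in Sham (log2 fold change 0.54 with SE 0.19, edgeR adjusted p = 0.2), and 0.25 without NeMO replicate 3.

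**Figure D3:**
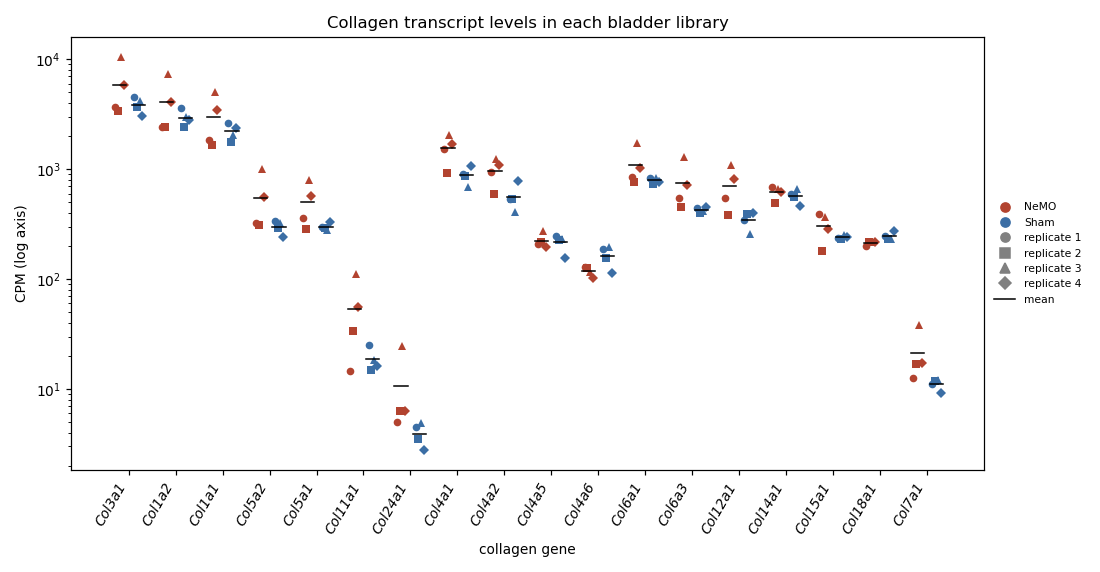
CPM (log axis) of 18 collagen genes in the 4 NeMO libraries (left of each pair) and the 4 Sham libraries; each point is a library, its shape the replicate, and the bar the mean. Col24a1, Col6a3 and Col7a1 have all NeMO points above all Sham points, Col18a1 has all NeMO points below, and Col11a1 ranges from 14.6 to 111 CPM in NeMO.

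Network collagens took 14.5 ± 3.3% of collagen reads in NeMO and 12.9 ± 2.11% in Sham (SD, n = 4 each), nearly all of it type IV. Of 8 tested, 5 were above 0 and 3 below, with a median log2 fold change of 0.37 (0.30 without NeMO replicate 3, 0.35 in batch 1 and 0.31 in batch 2). None passed edgeR's adjusted test, and 3 were higher and 1 lower with an unadjusted p below 0.05, beside 9.38% and 9.14% of all genes. The members differed in sign.

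Col4a1 and Col4a2 encode the alpha1 and alpha2 chains of the type IV collagen found in nearly every basement membrane, including those around smooth muscle cells and vessels. Col4a1 measured 1516, 933, 2038 and 1713 CPM in NeMO, against 901, 859, 694 and 1077 CPM in Sham (log2 fold change 0.82 with SE 0.24, edgeR adjusted p = 0.145). Col4a2 measured 950, 599, 1227 and 1096 CPM in NeMO, against 535, 530, 405 and 780 CPM in Sham (log2 fold change 0.77 with SE 0.26, edgeR adjusted p = 0.189). NeMO replicates 1, 3 and 4 were above all Sham libraries in both genes, and NeMO replicate 2 lay within the Sham range. DESeq2's adjusted p was 0.00895 for Col4a1 and 0.0265 for Col4a2. Without NeMO replicate 3 they stood at 0.61 and 0.57. In batch 1 the log2 fold changes were 1.12 and 1.15, but in batch 2, against its only Sham library, they were 0.31 and 0.13. Sham replicate 4 held the highest Sham value of both genes, and leaving it out gives the batch 1 log2 fold changes again, at 1.12 and 1.15.

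Col4a5 and Col4a6, on chromosome X, encode the chains of another type IV network, which surrounds smooth muscle and lies under epithelia. Col4a6 measured 129, 127, 115 and 102 CPM in NeMO, against 189, 154, 197 and 114 CPM in Sham (log2 fold change −0.36 with SE 0.14, edgeR adjusted p = 0.226). Col4a6 had the lowest log2 fold change of the collagen genes at a mean of at least 1 CPM, and the groups overlapped through Sham replicate 4. In batch 1 it was −0.56 and in batch 2 0.01. Col4a5 measured 210, 216, 275 and 195 CPM in NeMO, against 248, 228, 232 and 154 CPM in Sham (log2 fold change 0.17 with SE 0.11, edgeR adjusted p = 0.454), and its groups overlapped. The value of Col4a5 was 0.11 without NeMO replicate 3, 0.32 without NeMO replicate 1 and 0.04 without Sham replicate 4. Col4a3 and Col4a4, whose network is typical of the kidney glomerulus, were scarce. Col4a3 measured 1.46, 1.72, 3.41 and 2.07 CPM in NeMO, against 1.06, 1.45, 1.85 and 0.911 CPM in Sham (log2 fold change 0.84 with SE 0.34, edgeR adjusted p = 0.237). Col4a4 measured 1.03, 1.32, 1.63 and 1.49 CPM in NeMO, against 1.06, 1.94, 1.77 and 1.14 CPM in Sham (log2 fold change −0.06 with SE 0.32, edgeR adjusted p = 0.941). Both rest on 24 to 117 reads per library, and without NeMO replicate 3 Col4a3 stood at 0.48.

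Type VIII chains form hexagonal sheets in vessel walls and under endothelia. Col8a1 measured 83.8, 41.7, 98.9 and 96.8 CPM in NeMO, against 57, 72.3, 56.5 and 46.8 CPM in Sham (log2 fold change 0.56 with SE 0.25, edgeR adjusted p = 0.285). Col8a2 measured 47.7, 34.5, 37.7 and 32.5 CPM in NeMO, against 33.1, 49.7, 33.6 and 59 CPM in Sham (log2 fold change −0.21 with SE 0.22, edgeR adjusted p = 0.648). Both overlapped between the groups, and Col8a1 stood at 0.36 without NeMO replicate 4. The sign of Col8a2 differed between batches, at 0.14 in batch 1 and −0.81 in batch 2, and Sham replicate 4 held its highest value. Col10a1, known from cartilage that is turning to bone, had 0, 3, 11 and 9 reads in NeMO and 0, 0, 0 and 2 reads in Sham. It lies within Nt5dc1 on the opposite strand and was not tested.

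Beaded filament collagens took 12.2 ± 0.872% of collagen reads in NeMO and 12 ± 0.769% in Sham (SD, n = 4 each). All 7 tested were above 0, with a median log2 fold change of 0.54 (0.28 without NeMO replicate 3, 0.77 in batch 1 and 0.43 in batch 2). None passed edgeR's adjusted test, and 4 were higher with an unadjusted p below 0.05, beside 9.38% of all genes. Type VI collagen, which joins cells and basement membranes to the fibrils, made up almost all of the class.

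Col6a1 measured 853, 759, 1749 and 1034 CPM in NeMO, against 825, 738, 837 and 757 CPM in Sham (log2 fold change 0.54 with SE 0.23, edgeR adjusted p = 0.253). Col6a2 measured 573, 492, 1345 and 702 CPM in NeMO, against 563, 513, 613 and 589 CPM in Sham (log2 fold change 0.50 with SE 0.28, edgeR adjusted p = 0.394). These neighbours on chromosome 10 encode the short chains of type VI, and both were highest in NeMO replicate 3. Without that library they stood at 0.16 and 0.02. Col6a3, the long chain that carries many von Willebrand factor A domains, measured 547, 453, 1285 and 717 CPM in NeMO, against 447, 397, 419 and 449 CPM in Sham (log2 fold change 0.85 with SE 0.29, edgeR adjusted p = 0.198). Every NeMO value of Col6a3 was above every Sham value, the closest being 453 CPM in NeMO replicate 2 and 449 CPM in Sham replicate 4. It stood at 0.38 without NeMO replicate 3, 1.12 in batch 1 and 0.39 in batch 2.

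The alternative chains Col6a4, Col6a5 and Col6a6, which can take the place of the alpha3 chain, lie side by side on chromosome 9 and were scarce. Col6a4 measured 2.12, 3.97, 9.52 and 2.07 CPM in NeMO, against 0.824, 1.73, 3.17 and 1.37 CPM in Sham (log2 fold change 1.45 with SE 0.57, edgeR adjusted p = 0.233). Col6a5 measured 0.687, 1.69, 4.86 and 2.71 CPM in NeMO, against 1.53, 1.38, 0.838 and 1.06 CPM in Sham (log2 fold change 1.11 with SE 0.55, edgeR adjusted p = 0.316). Both were highest in NeMO replicate 3 and overlapped between the groups, and without that library they stood at 0.61 and 0.07. Col6a6 measured 1.75, 1.13, 1.92 and 3.51 CPM in NeMO, against 1.77, 1.94, 1.02 and 1.75 CPM in Sham (log2 fold change 0.29 with SE 0.39, edgeR adjusted p = 0.727). It had its highest value in NeMO replicate 4, without which its log2 fold change was −0.02. Col28a1, in adult mice known from nerve sheaths, measured 16.1, 11.2, 10.6 and 11 CPM in NeMO, against 9.83, 8.17, 11.3 and 7.29 CPM in Sham (log2 fold change 0.50 with SE 0.17, edgeR adjusted p = 0.177). Its highest value was in NeMO replicate 1, and it was the only tested collagen gene whose lowest NeMO value was in NeMO replicate 3. Markers of Schwann cells, the sheath cells of nerves, summed to 111 to 130 CPM in NeMO and 127 to 153 CPM in Sham, with 5 of 5 genes below 0. Col26a1 had 0 to 10 reads per library and was not tested.

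FACIT collagens took 7.66 ± 1.18% of collagen reads in NeMO and 7.31 ± 0.616% in Sham (SD, n = 4 each). Of 8 tested, 7 were above 0, with a median log2 fold change of 0.46 (0.25 without NeMO replicate 3, 0.75 without NeMO replicate 1, 0.51 in batch 1 and 0.42 in batch 2). None passed edgeR's adjusted test, and 2 were higher with an unadjusted p below 0.05, beside 9.38% of all genes. Types XII and XIV, which both bind the surface of type I fibrils, were the main members by mean CPM.

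Col12a1 measured 543, 381, 1088 and 809 CPM in NeMO, against 347, 387, 259 and 397 CPM in Sham (log2 fold change 1.04 with SE 0.33, edgeR adjusted p = 0.177). NeMO replicates 1, 3 and 4 were above all Sham libraries and NeMO replicate 2 was within their range. The log2 fold change was 0.65 without NeMO replicate 3, 1.30 in batch 1 and 0.59 in batch 2. Col14a1 measured 688, 491, 660 and 616 CPM in NeMO, against 593, 556, 655 and 464 CPM in Sham (log2 fold change 0.20 with SE 0.10, edgeR adjusted p = 0.342), with overlapping groups, and lay between 0.14 and 0.24 whichever library was left out. Col16a1 measured 168, 168, 437 and 277 CPM in NeMO, against 179, 158, 161 and 151 CPM in Sham (log2 fold change 0.75 with SE 0.31, edgeR adjusted p = 0.254), and 0.27 without NeMO replicate 3. Of the other FACIT genes, Col20a1 measured 14.7, 17.2, 16.4 and 18.9 CPM in NeMO, against 16.5, 16.8, 20.9 and 19.9 CPM in Sham (log2 fold change −0.19, SE 0.11). Col19a1, Col9a3, Col22a1 and Col9a2 averaged under 3 CPM, with log2 fold changes from 0.38 to 0.51 and SE from 0.37 to 0.68. Without NeMO replicate 3, Col9a2 stood at −0.57, Col22a1 at −0.26 and Col9a3 at 0.32. Col9a1, with 0 to 7 reads per library, was not tested.

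The other collagens took 3.05 ± 1.08% of collagen reads in NeMO and 3.78 ± 0.309% in Sham (SD, n = 4 each). They include the basement membrane proteoglycan cores Col15a1 and Col18a1, the anchoring fibril gene Col7a1 and the transmembrane collagens Col13a1, Col23a1 and Col25a1. Of these 6, 3 were above 0 and 3 below, with a median log2 fold change of 0.08 (0.17 in batch 1 and −0.07 in batch 2). None passed edgeR's adjusted test, and 1 was higher and 1 lower with an unadjusted p below 0.05, a count near the 9.38% and 9.14% of all genes.

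Col18a1, whose C-terminal fragment is endostatin, measured 201, 217, 219 and 216 CPM in NeMO, against 249, 232, 232 and 273 CPM in Sham (log2 fold change −0.23 with SE 0.07, edgeR adjusted p = 0.154). All NeMO values lay between 201 and 219 CPM, below every Sham value, and the log2 fold change stayed between −0.28 and −0.18 whichever library was left out. DESeq2's adjusted p for Col18a1 was 0.0595. Slc19a1, which overlaps Col18a1 on the opposite strand, measured 10.2 to 14.2 CPM in NeMO and 9.62 to 14.3 CPM in Sham (log2 fold change −0.10, SE 0.14). The related Col15a1 measured 390, 179, 371 and 285 CPM in NeMO, against 237, 231, 250 and 243 CPM in Sham (log2 fold change 0.40 with SE 0.18, edgeR adjusted p = 0.28), with NeMO replicate 2 below all Sham libraries and the other NeMO libraries above them. In batch 2 alone Col15a1 stood at −0.06.

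Col7a1, which forms the anchoring fibrils that tie an epithelium's basement membrane to the tissue below, measured 12.7, 16.9, 38.2 and 17.3 CPM in NeMO, against 11.1, 11.9, 12.1 and 9.11 CPM in Sham (log2 fold change 1.05 with SE 0.30, edgeR adjusted p = 0.145). Every NeMO value was above every Sham value, and 3 of the 4 NeMO values lay between 12.7 and 17.3 CPM. DESeq2's adjusted p was 0.00858, and the log2 fold change was 0.49 without NeMO replicate 3, 1.12 in batch 1 and 0.92 in batch 2. Urothelial markers, the epithelium above those fibrils, had 1 of 8 genes above 0 and a median log2 fold change of −0.37. Their part in the result was not tested. Col25a1 measured 70.7, 43.6, 41 and 36.2 CPM in NeMO, against 50, 59.5, 70.8 and 42.5 CPM in Sham (log2 fold change −0.10, SE 0.18), and stood at 0.08 without NeMO replicate 3. Col23a1 spanned 8.96 to 11.6 CPM in NeMO, against 7.89 to 17.1 CPM in Sham, and Col13a1 was near 1 CPM in both groups.

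**Figure D4:**
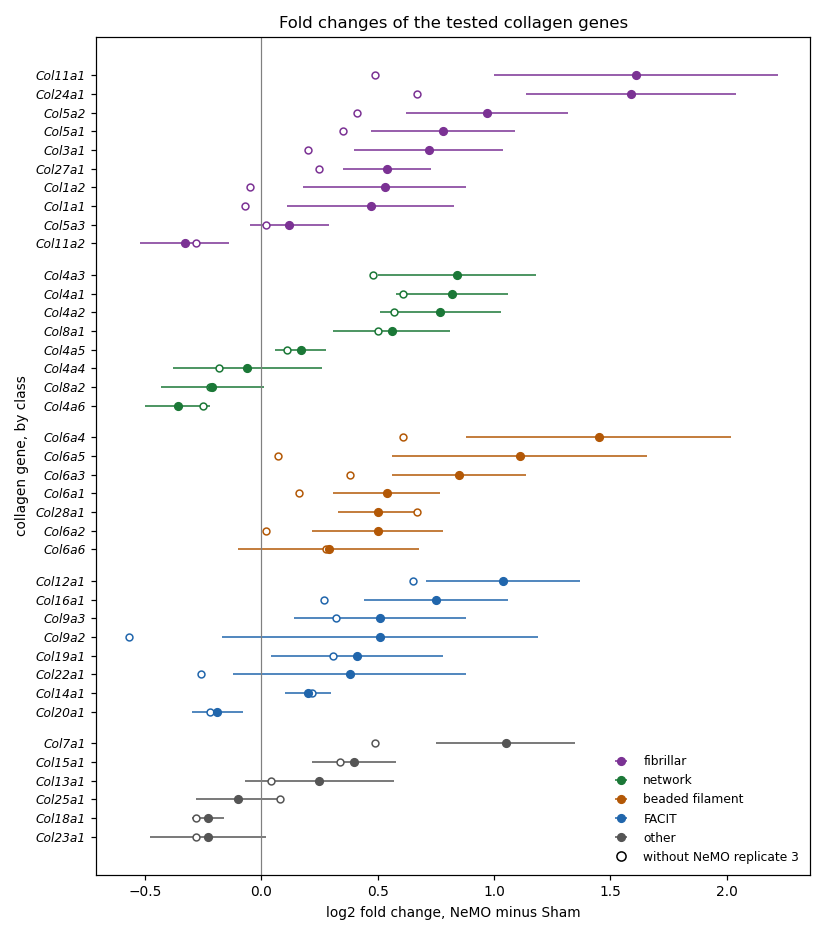
Log2 fold change (NeMO minus Sham) of the 39 tested collagen genes, grouped by class: filled points are the estimates from all 8 libraries with bars of 1 SE, and open points are the estimates without NeMO replicate 3. Of the filled points 31 are above 0, and most fibrillar and type VI genes move towards 0 without that library, Col1a1 to −0.07 and Col3a1 to 0.20.

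Ratios between partner and related chains were taken within each library on the per-length scale, which does not depend on library scaling. Col1a1 over Col1a2 spanned 0.619 to 0.759 in NeMO, against 0.628 to 0.768 in Sham. Col4a1 over Col4a2 spanned 1.52 to 1.62 in NeMO, against 1.35 to 1.67 in Sham, and Col6a1 over Col6a2 1.56 to 1.85 in NeMO, against 1.54 to 1.75 in Sham. In these pairs the ratio in NeMO replicate 3 lay within the Sham range, although each chain's own level was highest there. Col3a1 over Col1a1 spanned 1.77 to 2.21 in NeMO, against 1.38 to 2.18 in Sham, lowest in Sham replicate 4. These lengths are of the longest annotated transcript. With the merged length of all annotated exons, the Col1a1 over Col1a2 ratio was 1.3 to 1.59 in NeMO and 1.32 to 1.61 in Sham, so its position against 1 depends on the length used.

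Of 20 ratios computed, the groups did not overlap in 3, and the ratios were not tested. Single genes without overlap made up 4.39% higher and 3.81% lower, but single genes are not a background for ratios within a library. The share for ratios of other gene pairs was not computed, and several of the 20 ratios have a chain in common. Col4a5 over Col4a6 was 1.66, 1.73, 2.43 and 1.95 in NeMO and 1.33, 1.5, 1.2 and 1.38 in Sham. Col4a3 over Col4a4 was 1.67, 1.54, 2.47 and 1.64 in NeMO and 1.18, 0.886, 1.24 and 0.945 in Sham. Both of those chains rest on only 24 to 117 reads per library, so their ratio is limited by depth. Col6a3 over Col6a1 was 0.260, 0.242, 0.298 and 0.281 in NeMO and 0.220, 0.218, 0.203 and 0.241 in Sham. Each of these ratios was higher in every NeMO library than in every Sham library. Among ratios that overlapped, Col12a1 over Col14a1 was 0.442, 0.435, 0.925 and 0.736 in NeMO and 0.329, 0.390, 0.222 and 0.480 in Sham. Col8a1 over Col8a2 spanned 1.03 to 2.53 in NeMO, against 0.672 to 1.46 in Sham.

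**Figure D5:**
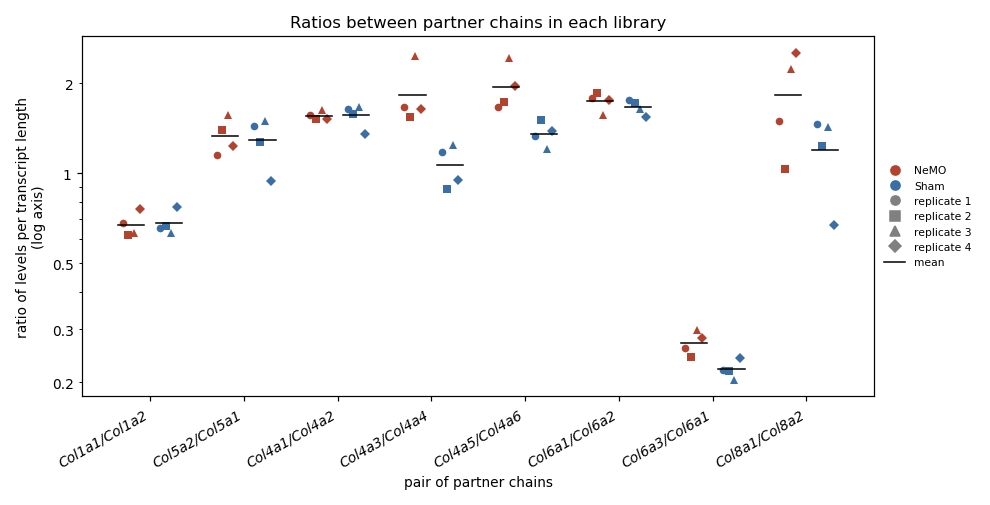
Ratio of the levels of partner chains, per length of the longest transcript (log axis), in the 4 NeMO libraries (left of each pair) and the 4 Sham libraries; each point is a library and the bar the mean. Col1a1/Col1a2 and Col4a1/Col4a2 overlap between the groups, while Col4a3/Col4a4, Col4a5/Col4a6 and Col6a3/Col6a1 do not.

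Genes that modify, process, crosslink, bind or cut collagen were read from lists of 50 genes, of which 46 were tested. Of these, 33 were above 0 with a median log2 fold change of 0.21, and none passed edgeR's adjusted test (13 higher and 2 lower with an unadjusted p below 0.05, beside 9.38% and 9.14% of all genes). DESeq2 called 7 of them, 6 higher (P4ha3, Plod2, Bmp1, Loxl4, Itga2 and Ctsk) and 1 lower (Mmp9), beside 3.6% of all genes higher and 2.72% lower. The list of prolyl and lysyl hydroxylases, their partners and glycosyltransferases had a median of 0.03 over 15 genes, the chaperone and secretion list 0.11 over 6 and the propeptide processing list 0.28 over 7. The crosslinking list of lysyl oxidases had a median of 0.75 with 5 of 5 above 0, and the groups overlapped in all 5. Its NeMO libraries varied widely for Lox (102 ± 87.7 CPM in NeMO, 39.4 ± 12 CPM in Sham) and Loxl2 (28.6 ± 14.9 CPM in NeMO, 12.7 ± 2.29 CPM in Sham; SD, n = 4 each). The receptor list had a median of 0.26 with 7 of 9 above 0, and the collagen cleavage list 0.59 with 3 of 4 above 0. Values without NeMO replicate 3 are not given for these lists. The smallest p was that of P4ha3, a prolyl 4-hydroxylase subunit, which averaged 9.08 ± 5.9 CPM in NeMO and 1.61 ± 0.605 CPM in Sham (SD, n = 4 each, log2 fold change 2.62 with SE 0.50, edgeR adjusted p = 0.085). The more abundant subunit P4ha1 stood at 0.03 (SE 0.17) and the collagen chaperone Serpinh1 at −0.07 (SE 0.27). Among the cleaving enzymes, Ctsk, the collagen-degrading cathepsin K, averaged 92.7 ± 26.5 CPM in NeMO and 57.4 ± 13.3 CPM in Sham (0.81, SE 0.17, edgeR adjusted p = 0.0899). Mmp9, a gelatinase, averaged 9.6 ± 5.54 CPM in NeMO and 34.7 ± 8.59 CPM in Sham (−1.86, SE 0.43, edgeR adjusted p = 0.118).

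Markers of the cells that make collagen were set beside these levels. General fibroblast markers summed to 3508 to 4702 CPM in NeMO and 3530 to 4928 CPM in Sham. Of these 8 genes 3 were above 0, with a median log2 fold change of −0.12. With an unadjusted p below 0.05, 0 were higher and 3 lower, beside 9.38% and 9.14% of all genes. Other lists had such genes too: 5 of 8 urothelial, 2 of 5 Schwann cell, 2 of 4 adipocyte, 1 of 4 mesothelial and 1 of 4 leukocyte markers were lower. Higher were 2 of 4 activated fibroblast and 1 of 2 tested cartilage and bone markers. Markers of activated fibroblasts summed to 759, 568, 1024 and 734 CPM in NeMO and 523, 472, 637 and 456 CPM in Sham, with 4 of 4 above 0 and a median of 1.00. In this sum and in the summed collagen level alike, NeMO replicate 3 was highest and replicate 2 lowest. NeMO replicate 1 was above replicate 4 in this sum but below it in the summed collagen level. Almost all of the activated fibroblast sum is the matrix protein gene Postn (561 to 1000 CPM in NeMO and 452 to 632 CPM in Sham). Cthrc1 was above all Sham libraries in every NeMO library, and Fap in NeMO replicates 3 and 4. Lrrc15 was so only in NeMO replicate 3, at 4.43 CPM against 0.359 to 0.942 CPM in Sham. No fold change without NeMO replicate 3 is given for these markers. Smooth muscle markers had a median of −0.04, pericyte markers 0.14, endothelial markers 0.13, leukocyte markers −0.06, mesothelial markers −0.24 and adipocyte markers −1.19. Adipocyte markers summed to 122 to 650 CPM in NeMO and 403 to 1477 CPM in Sham, and skeletal muscle markers to 707 to 1251 CPM in NeMO and 768 to 1041 CPM in Sham. The part of these cell types in the collagen levels was not tested. Collagen transcripts are long. Across all genes, how far a library stood from the mean of each gene correlated with transcript length at a Spearman rho of 0.00195 to 0.262 in NeMO libraries, against −0.268 to −0.00213 in Sham libraries. The part of this length trend was not tested beyond the correction that follows. With that trend and GC content removed, the collagen median was 0.48 and the class medians 0.59, 0.29, 0.56, 0.44 and 0.05 for fibrillar, network, beaded filament, FACIT and other collagens.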

How the data were processed

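Whole-bladder polyA RNA was sequenced in 4 NeMO and 4 Sham libraries. The authors deposited raw read counts per gene symbol for each library. Per the submitters' processing notes, Trimmomatic, STAR, featureCounts and DESeq2 were used with mm10; the sources used here do not give versions or the strand setting. Counts were tested with edgeR 4.0.16 (R 4.3.3, limma 3.58.1): filterByExpr (minimum count 10, minimum total 15), TMM scaling, a robust quasi-likelihood test with batch and group, and Benjamini-Hochberg adjustment over 16370 genes at 0.05. The procedure was tested on simulated counts. The batch was read from a mark in the submitted file names. CPM is depth-normalised to the TMM-scaled library total, and levels between genes are CPM per kilobase of the longest transcript (GENCODE M21). Library totals are the range given in the report, and replicates of a group differed beyond sampling noise (chi-square per degree of freedom 20.6 to 112). Alternatives were other size factors, no low-count filter, DESeq2 1.42.0, no batch term, a replicate block, each batch alone, a length and GC correction, and each library left out.

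Values per library are given for the 2 most abundant members of each class, members with an unadjusted p below 0.05 with a mean of at least 1 CPM, the members with the highest and lowest log2 fold change at that mean, and partner chains of types I, IV, V, VI and VIII. That rule names 30 genes; the per-library values of Col11a2, Col20a1 and Col25a1 were added after their values were seen. The members and lists were chosen with earlier results of these data known. Of 50 pathway genes, P3h1 to P3h4 were matched through older symbols.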

Additional observations from a re-analysis of the deposited data

Results flagged for a closer look

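A single library stood far from the other 3 of its group, by Dixon's criterion for 4 samples, in 2 of 72 gene and group combinations examined. The 72 do not take in every tested gene in both groups. Col9a2, which averaged 0.333 CPM, is not among the 2. Its NeMO values were 0.201, 0.232, 0.932 and 0.166 CPM, with replicate 3 far above the others. Chance sets apart about 1 in 20 groups.

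Col24a1 in NeMO was 24.6 CPM in replicate 3, while the other NeMO libraries lay between 5.01 and 6.33 CPM, and the gap took 0.933 of the group's range. Col28a1 in NeMO was 16.1 CPM in replicate 1, while the other NeMO libraries lay between 10.6 and 11.2 CPM, and the gap took 0.888 of the range.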

How the results depend on the processing

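No alternative called a collagen gene lower. At an adjusted p of 0.05 DESeq2 called 4 higher, beside 3.6% of all genes. Leaving out 1 library at a time gave 0 to 6, the 6 beside 1.93%. Other size factors, no low-count filter, no batch term, the replicate block, batch 1 alone and the length and GC correction gave 0. Over all genes, batch 1 alone and the fits without NeMO replicate 4 or Sham replicate 4 called 0 higher and 0 lower. The replicate block called 2 higher and 0 lower over all genes, and no batch term 6 and 1. Where so few genes are called, 0 collagen genes is no result about collagens. With an unadjusted p below 0.05, 15 genes stood higher with all libraries. The number was 9 with no low-count filter, 8 in batch 1 and 5 to 19 with a library left out. The number lower was 2, against 1 in batch 1, 3 with the length and GC correction and 1 to 2 with a library left out. For unadjusted p, the share of all genes is given for the main fit only. The counts in other settings, the replicate block included, have no such background beside them. The median log2 fold change with a library left out ran from 0.22 to 0.72 over all collagens, 0.22 to 0.89 for fibrillar, 0.26 to 0.47 for network, 0.28 to 0.77 for beaded filament, 0.25 to 0.75 for FACIT and 0.03 to 0.17 for other collagens.

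Among the 30 genes named by rule, the sign turned for Col4a4 (0.08 with the replicate block, 0.32 in batch 2), Col4a6 (0.01 in batch 2), Col15a1 (−0.06 in batch 2), Col5a3 (−0.18 in batch 2) and Col8a2 (0.14 in batch 1). With a library left out it also turned for Col4a4 (−0.25 to 0.17), Col8a2 (−0.40 to 0.14), Col1a2 (−0.05 to 0.80), Col1a1 (−0.07 to 0.72) and Col6a6 (−0.02 to 0.46). Among the other 9 tested genes it turned without NeMO replicate 3 for Col25a1 (0.08), Col9a2 (−0.57) and Col22a1 (−0.26), and in batch 2 for Col13a1 (−0.10), Col23a1 (0.08) and Col22a1 (−0.05). The cause was not tested.

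Same-numbered NeMO and Sham libraries had deviations correlated at −0.00958, 0.082, 0.0438 and 0.324 for replicates 1 to 4. The value of 0.324 was the highest of any NeMO and Sham pair, followed by 0.255 for NeMO replicate 3 with Sham replicate 1. The batch effect was left in, and both replicate 4 libraries are in batch 2. These correlations therefore cannot decide whether the numbers pair samples. The titles that give the numbers do not say so, and the numbers were not taken to pair samples. With the replicate block, 0 collagen genes passed the adjusted threshold, beside 2 higher and 0 lower over all 16370 genes. Of the collagen genes, 13 were higher and 2 lower with an unadjusted p below 0.05, and the median was 0.51. Leaving out Sham replicate 4 gives nearly the same log2 fold changes as batch 1 alone, since the remaining batch 2 libraries are all NeMO. The p-values differ, because those libraries still enter the estimate of spread. For Col15a1 the edgeR adjusted p was 0.191 in batch 1 and 0.396 without Sham replicate 4. Col9a2 had no value in batch 2, and genes of a few CPM are limited by depth.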
